A study of Homo sapiens with 4 samples.

Results

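The troponin genes were examined as a family of 8 among the 61806 genes of the deposited table, namely TNNT1, TNNT2, TNNT3, TNNI1, TNNI2, TNNI3, TNNC1 and TNNC2, taken by their gene symbols. The family was chosen by the fall of TNNT3 after melatonin in JJ012 cells, one of the largest there, so the values of the JJ012 comparison are given here as a description. RNA-seq was performed on 2 human bone cancer cell lines kept in suspension, JJ012 (chondrosarcoma) and 143B (osteosarcoma). Each line gave 1 untreated control library and 1 library after 72 h of melatonin, the pineal hormone, at 1 mM. With 1 library per group, no difference could be set against the spread between cultures, and every interval below covers counting error only. The libraries held between 15889564 and 19218343 counts, so that 3 counts, the floor used here, corresponded to 0.156 to 0.189 CPM (counts scaled to the library total).

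Troponin is the calcium switch of striated muscle and sits on the actin thin filament together with tropomyosin. Troponin T anchors the complex to tropomyosin, troponin I inhibits the interaction of actin with myosin, and troponin C binds calcium and relieves that inhibition. Each subunit has slow skeletal, fast skeletal or heart forms, encoded by separate genes. TNNT1 and TNNI1 encode the slow skeletal forms, TNNT3, TNNI2 and TNNC2 the fast skeletal forms, TNNT2 and TNNI3 the heart forms, and TNNC1 the troponin C shared by slow skeletal muscle and heart.

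By the positions in the authors' table (hg38 in the submitters' processing notes), 6 of the 8 genes lie in 3 pairs of a troponin T gene beside a troponin I gene. TNNI2 (chromosome 11, 1838981 to 1841680, plus strand) lies 78.0 kb before TNNT3 (chromosome 11, 1919703 to 1938706, plus strand). TNNT1 (chromosome 19, 55132698 to 55149206, minus strand) lies 2.56 kb from TNNI3 (chromosome 19, 55151767 to 55157773, minus strand), and TNNT2 and TNNI1 lie 26.0 kb apart on chromosome 1. TNNC1 (chromosome 3) and TNNC2 (chromosome 20) stand alone. No other gene of the table overlaps TNNT1, TNNT3, TNNI2, TNNC1 or TNNC2. TNNT2, TNNI1 and TNNI3 are each overlapped by 1 gene, and these overlapping genes had at most 1 count in any library.

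The paralogs are alike in protein function but can be told apart by reads of 150 bases. Between the coding sequences of the principal GENCODE 29 transcripts, aligned bases were 71.5% identical for TNNT1 and TNNT3 and 76.8% identical for TNNI1 and TNNI2. The longest run shared without a mismatch was 18 bases for the first pair and 21 bases for the second, and no pair within a subunit shared more than 24 bases. The 60 coding bases around each run are shown, with the shared run in capitals, because the counts of these 4 genes carry most of what follows (coding positions 139 to 198 of TNNT1, 118 to 177 of TNNT3, and 453 to 512 of TNNI1 and of TNNI2).
TNNT1: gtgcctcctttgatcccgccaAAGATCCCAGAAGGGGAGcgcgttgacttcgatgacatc
TNNT3: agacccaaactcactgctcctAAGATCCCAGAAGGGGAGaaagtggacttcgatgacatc
TNNI1: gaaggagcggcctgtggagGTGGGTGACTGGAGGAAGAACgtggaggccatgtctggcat
TNNI2: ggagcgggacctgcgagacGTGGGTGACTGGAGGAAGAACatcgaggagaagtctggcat

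TNNT1, the slow skeletal troponin T, was the most abundant troponin mRNA per length in every library. It stood at 83.34 FPKM (counts per kilobase of exon, scaled to the library total) in the JJ012 control, 37.77 FPKM in melatonin-treated JJ012, 34.33 FPKM in the 143B control and 31.51 FPKM in melatonin-treated 143B. The JJ012 control was thus the high library, and the other 3 lay close together. By FPKM, 98.2% of the protein-coding genes lay below TNNT1 in the JJ012 control and 94.6% in melatonin-treated 143B. The counts were 3394 and 1292 in JJ012, a CPM ratio of 0.453 with an exact 95% interval of 0.425 to 0.483, or 2.21-fold lower after melatonin. In 143B the counts were 1156 and 1146, a CPM ratio of 0.918 with an interval of 0.845 to 0.997.

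TNNT3, the fast skeletal troponin T, had 1021 counts in untreated JJ012 cells, 11 after melatonin, and 7 in each 143B library. On the FPKM scale these were 19.55, 0.25, 0.16 and 0.15. TNNT3 was therefore abundant in a single library, the JJ012 control, where 89.5% of the protein-coding genes lay below it. By CPM it was 78.0-fold lower in JJ012 after melatonin, with an interval of 43.4-fold to 157-fold. On the log2(FPKM + 1) scale, which is used for the fold changes below, the difference between the treated and the control library was -4.04. Of the 7604 protein-coding genes that reached 5 FPKM in either JJ012 library, this was the second largest fall, after NMU (-4.35) and before CLEC3B (-3.98), WFDC5 (-3.85) and COL1A2 (-3.56). This order holds for the log2(FPKM + 1) scale. By counts, COL1A2 (2594 in the control and 24 after melatonin) fell in a larger proportion than TNNT3. In 143B the CPM ratio of TNNT3 was 0.926 (interval 0.277 to 3.09), and at 7 counts a rise of up to 3.09-fold could not be seen.
TNNT2, the heart troponin T, had 7 and 2 counts in JJ012 and 0 counts in both 143B libraries. A CPM ratio of 0.34 in JJ012 had an interval of 0.0345 to 1.79, and no change was detectable at this depth.

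**Figure D1:**
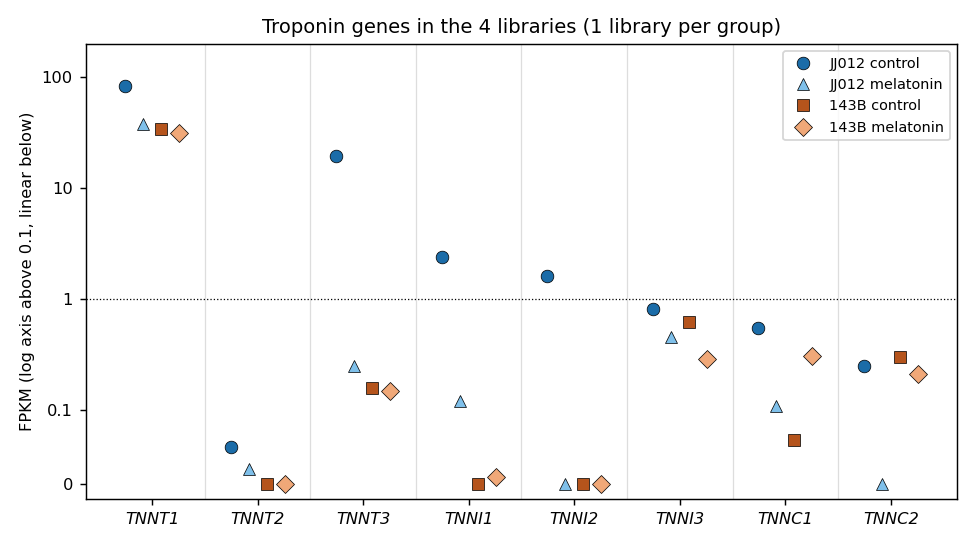
FPKM of the 8 troponin genes in each of the 4 libraries, on an axis that is logarithmic above 0.1 and linear below, with a dotted line at 1 FPKM and 1 point per library. TNNT1 lies between 31.51 and 83.34 FPKM in all libraries, while TNNT3, TNNI1 and TNNI2 exceed 1 FPKM in the JJ012 control alone.

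The troponin I genes, which encode the inhibitory subunit, were low. TNNI1, the slow skeletal form, had 346 counts in untreated JJ012 cells (2.39 FPKM), 14 after melatonin (0.12 FPKM), 0 in the 143B control and 1 in melatonin-treated 143B. Only the JJ012 control held it above 1 FPKM. It was 20.8-fold lower by CPM in JJ012 after melatonin, with an interval of 12.2-fold to 38.4-fold. TNNI2, the fast skeletal form, had 34 counts in the JJ012 control (1.63 FPKM) and 0 counts in each of the other 3 libraries. With the 0 counts of the treated library set at the floor of 3 counts, TNNI2 was 9.52-fold lower in JJ012 after melatonin. The exact 95% interval of its CPM ratio reached up to 0.136.
TNNI3, the heart form, was the troponin I gene found above the floor in every library, with 32 and 15 counts in JJ012 and 20 and 10 counts in 143B. Its CPM ratio was 0.558 in JJ012 (interval 0.281 to 1.06) and 0.463 in 143B (interval 0.193 to 1.04). Both ratios lay below 1, and both intervals included 1.

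The calcium-binding subunit was near the floor in all libraries. TNNC1 had 12 and 2 counts in JJ012, a CPM ratio of 0.198 with an interval of 0.0216 to 0.891, and 1 and 6 counts in 143B, a ratio of 5.55 with an interval of 0.674 to 255. TNNC2, the fast skeletal troponin C, had 4 and 0 counts in JJ012 and 4 and 3 counts in 143B. At such counts a change in either direction could not be measured for TNNC2.

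The FPKM divide by the exonic length over all transcripts of a gene, which is 7524 bases for TNNI1 and 7330 bases for TNNT2, against 1750 and 1122 bases in their principal GENCODE 29 transcripts. Divided by the principal transcript, as an alternative added after the data were seen, CPM per kilobase in the JJ012 control was 152 for TNNT1, 43.9 for TNNT3, 10.3 for TNNI1, 2.61 for TNNI2 and 1.98 for TNNI3. The order of these genes in the JJ012 control was the same on both scales, but TNNI1 stood higher against the others.

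**Figure D2:**
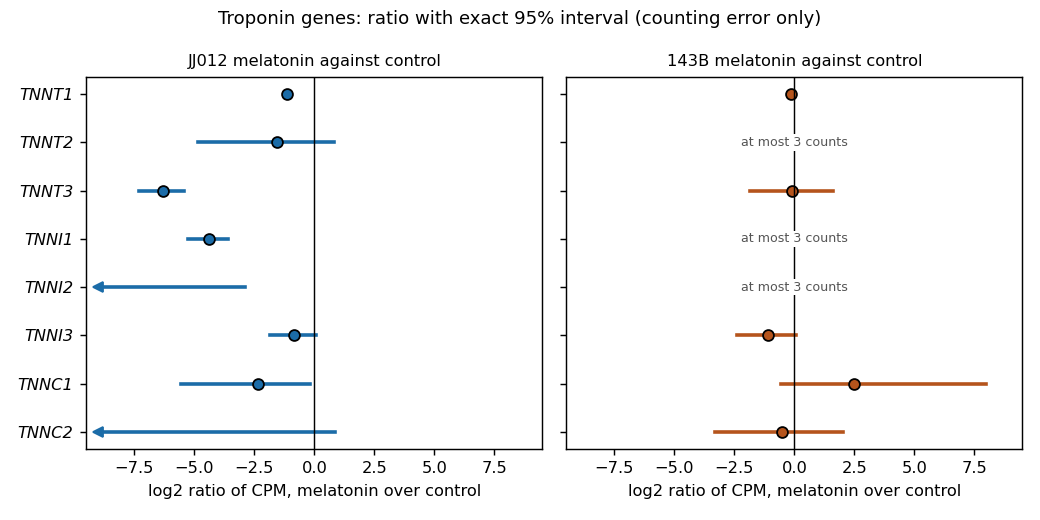
Log2 ratio of CPM, melatonin over control, for each troponin gene in JJ012 (left) and 143B (right); bars are exact 95% intervals of counting error, and an arrow marks an interval without a lower end because the treated library had 0 counts. In JJ012 the intervals of TNNT1, TNNT3, TNNI1, TNNI2 and TNNC1 lie wholly below 0, and in 143B that of TNNT1 ends just below 0.

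In JJ012, 4 of the 8 genes had at least 1 FPKM in at least 1 library, and these 4 (TNNT1, TNNT3, TNNI1 and TNNI2) passed the fold threshold of the study, 0.58 on the log2 scale, in the direction of lower after melatonin. Over all 15794 genes tested in JJ012, 18.6% were lower by the same rule and 19.6% higher, 38.2% in all. The log2 fold changes were -1.12 for TNNT1, -4.04 for TNNT3, -1.60 for TNNI1 and -1.40 for TNNI2. The last 3 genes were above 1 FPKM through the control library alone, and the comparison is the one on which the family was picked, so nothing is read from this count. By the interval of the CPM ratio, 5 of 8 genes lay wholly below 1, which was the case for 30.3% of all genes with more than 3 counts in a library, while 26.3% lay wholly above.

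The family was picked on the JJ012 comparison and not on 143B, but its members and the rules were set with earlier results of these data known. TNNT1 was the single troponin gene with at least 1 FPKM in 143B, and its log2 fold change was -0.12, short of the threshold. Of all 14135 genes tested in 143B, 12.7% passed the threshold in either direction. By the interval of the CPM ratio, 1 of the 5 genes above the floor, TNNT1, lay wholly below 1, against 18.7% below and 21.6% above of all genes over the floor. TNNT2, TNNI1 and TNNI2 had at most 1 count in both 143B libraries, so their response to melatonin could not be measured there. Whether the change of TNNT1 differed between the lines was not tested, since each line had 1 pair of libraries. By counting error alone, the intervals of its CPM ratio in JJ012 (0.425 to 0.483) and in 143B (0.845 to 0.997) did not overlap. The share of all genes for which this held was not counted, so nothing is read from it.

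The summed level of the family followed TNNT1. The 8 genes together reached 108.58 FPKM in the JJ012 control, 38.73 FPKM in melatonin-treated JJ012, 35.47 FPKM in the 143B control and 32.48 FPKM in melatonin-treated 143B. In the JJ012 control TNNT1 made up 76.8% and TNNT3 18.0% of this sum. In the other 3 libraries TNNT1 alone made up 96.8% to 97.5%. Troponin T genes summed to 102.94 FPKM in the JJ012 control, troponin I genes to 4.84 FPKM and troponin C genes to 0.80 FPKM. The subunits were thus far from equal in mRNA, and in every library troponin T made up at least 94.8% of the sum. By muscle type, the fast skeletal genes summed to 21.43 FPKM in the JJ012 control and to at most 0.46 FPKM in each of the other libraries.

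**Figure D3:**
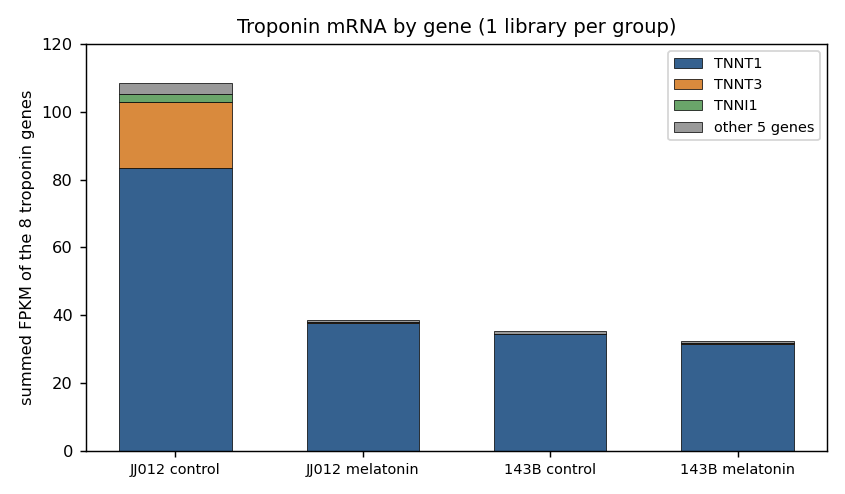
Summed FPKM of the 8 troponin genes in each library as stacked bars from 0, split into TNNT1, TNNT3, TNNI1 and the other 5 genes, with 1 library per bar and no error. The JJ012 control reaches 108.58 FPKM, of which TNNT3 gives 19.55, and the other libraries reach 32.48 to 38.73 FPKM, nearly all of it TNNT1.

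The untreated lines were then compared, with the JJ012 control library that also enters the JJ012 comparison, so the values below share that library. Of the 4 troponin genes with at least 1 FPKM, all 4 were higher in JJ012 than in 143B by the threshold, as were 41.3% of the 16929 genes tested, with 27.4% lower and 68.7% past the threshold in all. The median log2 fold change over all genes tested was 0.29. TNNT3, TNNI1 and TNNI2 reached 1 FPKM through the JJ012 control alone, so their direction was set by the filter and nothing is read from the count. By the interval of the CPM ratio, 6 of 8 troponin genes were higher in JJ012, against 45.7% higher and 28.3% lower of all genes above the floor. TNNT1 was 2.43-fold higher by CPM (interval 2.27-fold to 2.6-fold), and TNNT3 121-fold higher (interval 58.3-fold to 301-fold). With the 0 counts in 143B set at the floor, TNNI1 was 95.4-fold higher and TNNI2 9.37-fold higher. The lower ends of their intervals were 77.1-fold and 7.21-fold. TNNI3, with 32 and 20 counts, had a ratio of 1.32 with an interval of 0.734 to 2.44, and TNNC2 had 4 counts in each line. Between the treated libraries of JJ012 and 143B, the CPM ratio was 1.20 for TNNT1 (interval 1.11 to 1.30) and 1.67 for TNNT3 (interval 0.591 to 5.08, 11 and 7 counts). TNNI1 was still higher in JJ012, with 14 counts against 1, a ratio of 14.9 with an interval of 2.26 to 629. TNNI3 had 15 and 10 counts, a ratio of 1.59 (interval 0.67 to 3.97), TNNI2 had 0 in both, and TNNC2 had 0 and 3. The ratios of TNNT1 and TNNT3 were smaller than between the untreated lines. The fall of TNNT3 in JJ012, by which the family was chosen, enters that difference. The intervals of TNNT1 and TNNI1 lay wholly above 1. The share of all genes for which this held between the treated libraries was not counted, so nothing is read from these values.

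The genes beside the troponin loci were examined to see whether a troponin gene stood alone in its stretch of chromosome. Around TNNI2 and TNNT3, 9 of the 23 other genes within 100 kb were tested in JJ012, and 5 were lower after melatonin, which is 55.6%, against 18.6% of all genes tested. These 5 were SYT8, LSP1, MRPL23, H19 and CTSD, and 0 were higher. SYT8, LSP1 and H19 passed the filter through the control library alone, where they were high, so the share is given as a description. SYT8, a member of the synaptotagmin family, had 123 counts in the JJ012 control and 0 in each of the other libraries. With the treated library set at the floor, SYT8 was 34.4-fold lower in JJ012 after melatonin. The interval of its CPM ratio reached up to 0.0362. LSP1, an actin-binding protein of leukocytes, had 140 and 4 counts in JJ012 and was 29.4-fold lower, with an interval of 11.2-fold to 109-fold.
H19, an imprinted long noncoding RNA, had 135 and 6 counts and was 18.9-fold lower (interval 8.46-fold to 52.4-fold). MRPL23, which encodes a protein of the mitochondrial ribosome and lies 8572 bases beyond TNNT3, had 430 and 128 counts and was 2.82-fold lower (interval 2.31-fold to 3.47-fold). CTSD, the lysosomal protease cathepsin D, was 1.75-fold lower, from 15813 to 7603 counts. Lower genes thus lay on both sides of TNNT3, and the amounts differed between genes.
Below the filter, PRR33 had 52 and 1 counts and LINC01150 had 13 and 0 counts in JJ012. MRPL23-AS1, with 39 and 32 counts, and LINC01219, with 23 counts in each library, lie in the same stretch and had CPM ratios of 0.977 (interval 0.592 to 1.60) and 1.19 (interval 0.638 to 2.22). LSP1 overlaps PRR33 on the other strand, and the strand setting of the counting is not given in the sources used here. In 143B, 3 genes of this stretch were tested and 0 passed the threshold, with 6.65% lower and 6.09% higher among all genes tested. MRPL23 had a CPM ratio of 0.713 there (interval 0.60 to 0.846). LSP1, below 1 FPKM in 143B, had 48 and 23 counts, a ratio of 0.444 with an interval of 0.258 to 0.744. Between the untreated lines, with the same JJ012 control library, 5 of 9 tested genes of the stretch were higher in JJ012 (55.6%, against 41.3% of all genes) and 0 lower. These were CTSD, SYT8, H19, IFITM10 and a protein-coding gene without a symbol, and LSP1 and MRPL23 were not among them. All but CTSD passed the filter through the JJ012 control alone, so the share is given as a description.

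**Figure D4:**
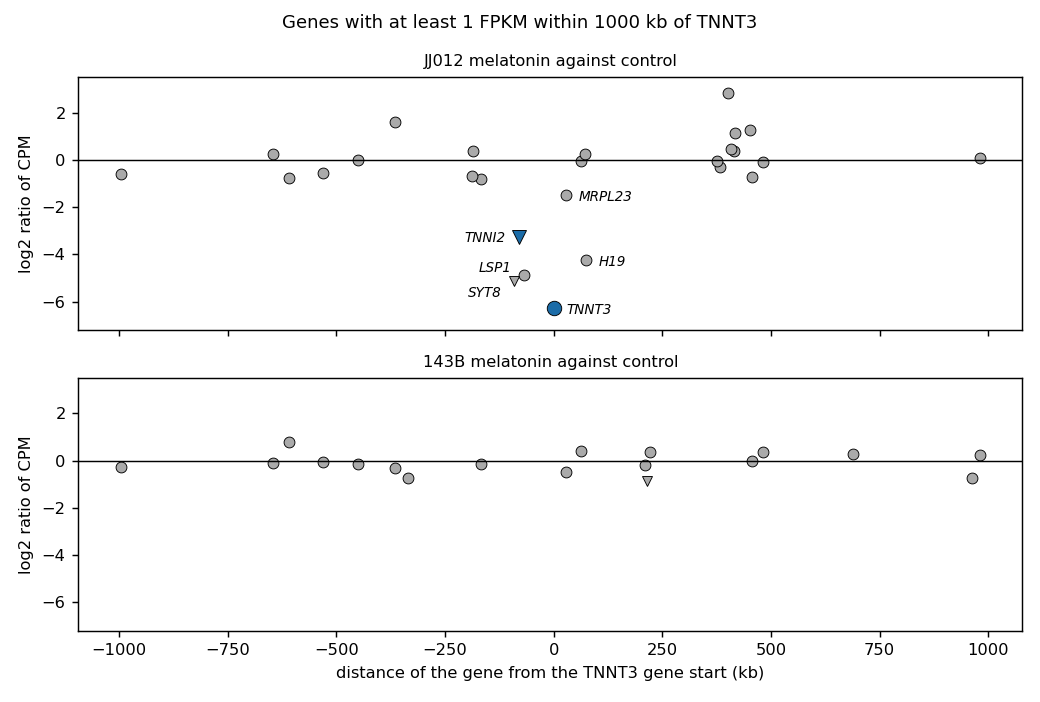
Log2 ratio of CPM, melatonin over control, against the distance of each gene start from the TNNT3 start in kb, for genes with at least 1 FPKM in a library of the line; the range of 1000 kb on either side was set after the data were seen. Colored symbols are troponin genes and gray symbols other genes. Triangles mark genes with 0 counts after melatonin, drawn with that library set at the floor of 3 counts. Genes at 3 counts or fewer in both libraries or at 0 in the control are not drawn. In JJ012 the lowest values (TNNT3, SYT8, LSP1, H19 and TNNI2) lie within 100 kb of TNNT3, while in 143B TNNT3 and TNNI2 are below 1 FPKM and the genes drawn as circles lie between -0.74 (CDKN1C, 239 and 155 counts) and 0.77 (TOLLIP-DT, 26 and 48 counts).

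The genes beside the other troponin loci were counted in the same way. Beside TNNT1 and TNNI3, 0 of 8 tested genes were lower in JJ012 and 2 were higher, GP6-AS1 (25 and 85 counts) and PTPRH, a receptor-type tyrosine phosphatase (661 and 1065 counts). Beside TNNI1 and TNNT2, 0 of 4 were lower and 1 was higher, the pseudogene RPS10P7 (209 and 307 counts). Here TNNI1 was 20.8-fold lower while its neighbors PHLDA3 (1585 and 994 counts) and CSRP1 (3109 and 2159 counts) did not reach the threshold.
Beside TNNC1, NT5DC2 was lower (822 and 129 counts) and PHF7 higher (194 and 294 counts) among 6 tested genes. Beside TNNC2, 3 of 11 tested genes were lower, namely WFDC3 (126 and 25 counts), DNTTIP1 (1023 and 517 counts) and RNU6ATAC38P, which had at most 3 counts in both libraries. In 143B, 1 of 33 tested neighbors of all 5 loci was lower, WFDC3 (93 and 48 counts), and 3 were higher. These were SNX21 (1555 and 3407 counts), which lies 54 bases from TNNC2, and 2 small RNA genes with at most 2 counts.

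Sequences before the gene start were at hand in the RefSeq table (GRCh38.p14) for 3 of the 8 genes, TNNT1, TNNT2 and TNNI3. The 250 bases before each RefSeq start are shown because TNNT1 and TNNI3 lie side by side and yet differed in level in every library (83.34 against 0.82 FPKM in the JJ012 control), with TNNT2 as a gene near 0 counts. By the authors' positions TNNI3 reaches to 55157773 and TNNT2 to 201377764, so the windows of these genes overlap the genes themselves. Searched on both strands were the MCAT element CATTCC, known as a binding sequence of TEAD factors, the muscle-type E-box CAGCTG, the TATA motif TATAAA, and the CArG box, the binding sequence of serum response factor. Capitals mark every match to these motifs.
TNNT1 (chr19:55149207-55149456, minus strand): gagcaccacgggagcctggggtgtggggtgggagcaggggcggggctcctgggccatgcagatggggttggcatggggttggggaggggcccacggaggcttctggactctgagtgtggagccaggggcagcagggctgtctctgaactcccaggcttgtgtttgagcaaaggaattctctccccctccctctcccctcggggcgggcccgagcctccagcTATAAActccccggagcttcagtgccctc
TNNI3 (chr19:55157733-55157982, minus strand): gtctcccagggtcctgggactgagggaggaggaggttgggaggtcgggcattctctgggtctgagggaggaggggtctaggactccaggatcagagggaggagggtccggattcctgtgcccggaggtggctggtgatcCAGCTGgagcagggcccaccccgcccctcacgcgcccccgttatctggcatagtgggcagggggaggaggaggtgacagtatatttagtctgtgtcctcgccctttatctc
TNNT2 (chr1:201377681-201377930, minus strand): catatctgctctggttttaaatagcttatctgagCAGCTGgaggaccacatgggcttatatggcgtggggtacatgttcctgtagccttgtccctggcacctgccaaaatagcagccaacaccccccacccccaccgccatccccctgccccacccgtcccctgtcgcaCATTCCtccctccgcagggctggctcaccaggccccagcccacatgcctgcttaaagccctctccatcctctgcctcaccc
TNNT1 held 1 match to TATAAA, starting at -29 from the gene start, and TNNI3 held 1 match to CAGCTG, at -111. TNNT2 held 1 match to CATTCC, at -81, and 1 to CAGCTG, at -216. By the authors' positions the CATTCC match lies inside TNNT2. Of 35116 promoters of the same length, 10.7% held TATAAA, 14.0% CAGCTG and 11.9% CATTCC, so none of these matches is rare. The CArG box, found in 1.16% of promoters, was not among these letters in the 3 windows.

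Other genes of the sarcomere were then set beside the troponin genes, from lists named for their known roles. Among partners on the thin filament, 13 of 19 genes were tested in JJ012, and 2 were lower and 3 higher after melatonin, with a median log2 fold change of -0.22 against 0.01 over all genes tested. These 5 of 13 are close to the share of all genes past the threshold, 38.2% (18.6% lower and 19.6% higher). TPM2, which encodes a tropomyosin to which troponin T binds, fell from 3347 to 713 counts (54.71 and 13.88 FPKM), a log2 fold change of -1.90. ACTA2, the smooth muscle actin, fell from 90 to 7 counts. The cytoplasmic actins rose, ACTB from 572.33 to 937.82 FPKM and ACTG1 from 363.86 to 618.37 FPKM. Tropomyosins and actins were therefore not uniform in direction.
Among thick filament and Z-disc genes, 6 of 12 tested genes were lower and 1 was higher in JJ012, with a median of -0.28, against 18.6% lower and 19.6% higher of all genes tested. The lower genes included TCAP, a Z-disc cap of titin (48 and 9 counts), and the myosin light chains MYL6B (1130 and 415 counts), MYL6 (5930 and 2372 counts) and MYL4 (59 and 12 counts). MYL6 belongs to the non-muscle myosin of most cells. TCAP, MYL4 and MYL3, also among the lower genes, passed the filter through the control library alone, where they were high. The share is therefore given as a description. The same held for ACTA2 above and for ATP2A1 below.
Of the muscle transcription factors, 0 of 11 tested genes were lower and 1 was higher, TEAD1, from 5.71 to 11.10 FPKM, with a median of 0.48. Among genes of calcium handling, CALM3, a calmodulin gene, was lower (33.04 and 15.38 FPKM), as was the fast muscle calcium pump ATP2A1 (92 and 25 counts), and the calcium pump gene ATP2A2 was higher (11.66 and 18.88 FPKM), among 7 tested genes with a median of -0.18.
In 143B, 0 genes passed the threshold in any of these 4 lists, among 10, 6, 11 and 6 tested genes, where 12.7% of all genes passed. Their medians were 0.03, 0.13, -0.17 and -0.01, against 0.03 over all genes tested.

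**Figure D5:**
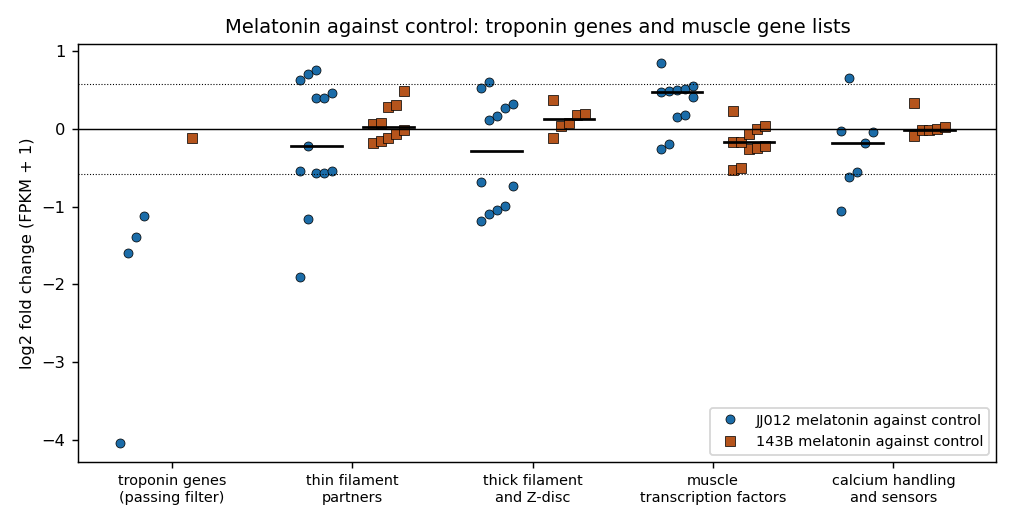
Log2 fold change (FPKM + 1), melatonin over control, of the troponin genes that passed the filter and of 4 lists of muscle genes, with 1 point per gene, circles for JJ012 and squares for 143B. Black bars are list medians and dotted lines the threshold of 0.58. In 143B all points lie inside the dotted lines, and in JJ012 they lie on both sides, with TNNT3 lowest at -4.04.

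Between the untreated lines, 5 of 13 tested thin filament genes were lower in JJ012 and 5 higher. Here and in the lists that follow, the counts stand against 27.4% lower and 41.3% higher, 68.7% in all, among all genes tested. Higher were ACTC1, the heart actin (102 counts against 1), ACTB and TPM4, and TMOD2, a cap of actin filaments, was lower (161 against 696 counts). Of 9 tested thick filament and Z-disc genes, 6 were higher and 1 lower. MYL9, a regulatory light chain, had 134.33 FPKM in JJ012 and 1.41 FPKM in 143B, MYL4 had 59 counts against 0, and the actin cross-linker ACTN4 was higher while ACTN1 was lower (8.89 against 50.77 FPKM). Of 13 tested muscle transcription factors, 7 were lower in JJ012 and 2 higher. TEAD4, SIX4 and GATA6 were lower, with 3.43, 1.28 and 0.53 FPKM against 30.73, 14.04 and 5.73 FPKM, and NKX2-5, a heart factor, had 94 counts against 1. Of 8 tested calcium genes, 4 were lower and 2 higher, among them RYR2, the heart calcium release channel, with 937 counts against 11, and CACNA1C, a calcium channel, with 41 against 581. Of the genes named here, ACTC1, MYL4, NKX2-5 and RYR2 passed the filter through the JJ012 control alone. TMOD2, GATA6 and CACNA1C passed it through the 143B control alone.

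Markers of muscle were examined because the troponin genes belong to it, and markers of the labelled tumor types with them. Of 10 skeletal muscle markers, 3 reached 1 FPKM in the JJ012 control, 2 in melatonin-treated JJ012 and 0 in either 143B library, and their summed level was 7.95, 3.44, 0.89 and 1.06 FPKM in that order. Those 3 were CKM, the muscle creatine kinase (94 and 36 counts in JJ012), DES, desmin (94 and 25 counts), and MB, myoglobin (64 and 8 counts). The myogenic factors were at or near 0, with 7 and 0 counts of MYOD1 in JJ012 and 0.00 FPKM of MYF5, MYF6 and the skeletal actin ACTA1 in every library. Of 8 heart markers, 2 reached 1 FPKM in each JJ012 library, NKX2-5 and ACTC1, and 1 in each 143B library, and the list summed to 5.58, 5.21, 1.42 and 1.27 FPKM. In JJ012 the similar sums held opposite moves. NKX2-5 was higher after melatonin (2.39 and 3.75 FPKM) and ACTC1 lower (2.32 and 1.24 FPKM). GATA4, TBX5, MYH6, MYH7 and NPPA were also lower, each at 0.23 FPKM or less in JJ012. Of 6 smooth muscle markers, 4 reached 1 FPKM in the JJ012 control and 1 to 2 in the other libraries, with sums of 11.09, 5.19, 22.41 and 25.40 FPKM. SMTN alone stood at 20.66 and 23.08 FPKM in 143B, against 5.39 and 3.36 FPKM in JJ012. TAGLN, ACTA2 and LMOD1 were higher in the JJ012 control than in the 143B control, and CNN1 and MYH11 had at most 0.17 FPKM in any library. MYH3, the embryonic myosin heavy chain, had 127 and 124 counts in JJ012 (0.99 and 1.15 FPKM). CKM, DES and MB were thus lower after melatonin in JJ012, while MYH3 was not. CKM, DES and MB were named because they reached 1 FPKM in the JJ012 control, DES and MB in that library alone. Nothing is therefore read from their direction. Over all genes tested in JJ012, 18.6% were lower past the threshold and 19.6% higher. The part of these markers in the troponin values was not tested. In these bulk libraries, fewer cells of a kind and less RNA per cell cannot be told apart.
For the labelled tumor types, SOX9, the cartilage master factor, stood at 15.06 and 6.16 FPKM in JJ012 and at 15.48 and 12.09 FPKM in 143B. The cartilage collagen COL2A1 had 0 counts in both JJ012 libraries, and ACAN, aggrecan, had 0.02 FPKM in each. Of 8 chondrocyte markers, 2 reached 1 FPKM in each JJ012 library and 1 in each 143B library. Of 7 osteoblast markers, 3 did so in the JJ012 control, 2 in melatonin-treated JJ012 and 2 in each 143B library, there RUNX2 and BGLAP. The chondrocyte list summed to 39.01 FPKM in the JJ012 control and 16.74 FPKM in the 143B control, with COL11A1 at 22.92 and 0.00 FPKM. The other members went both ways. MATN3 (0.91 and 0.64 FPKM), COL9A1 (0.02 and 0.00) and HAPLN1 (0.01 and 0.00) were higher in the JJ012 control. ACAN (0.02 and 0.11 FPKM), COMP (0.07 and 0.49), COL2A1 (0.00 and 0.02) and SOX9 were lower there. The osteoblast list summed to 94.74 and 6.97 FPKM, with SPP1, osteopontin, at 79.39 and 0.40 FPKM, while RUNX2 stood at 3.02 and 4.28 FPKM.

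Over the 4 libraries, the genes whose levels were most like those of TNNT3 were COL1A2, PCDH18, COL3A1, COL1A1 and XCL2, out of 8527 protein-coding genes that reached 5 FPKM in some library. Their Euclidean distances on the log2(FPKM + 1) scale were 0.68, 0.92, 0.95, 1.02 and 1.15. COL1A2 had 2594 and 24 counts in JJ012 and 0 and 1 in 143B, and COL3A1 had 1305 and 10 counts in JJ012 and 4 and 0 in 143B. COL1A1, the partner chain of COL1A2 in type I collagen, had 1891 and 112 counts in JJ012 and 70 and 51 in 143B. PCDH18, a protocadherin, had 1826 and 125 counts in JJ012, and the chemokine XCL2 had 153 and 14. All 5 were high in the JJ012 control and low in the other 3 libraries. With 4 libraries and 1 of them setting the pattern, this likeness is a description, and Pearson correlation as the measure kept 2 of the 5 genes (COL3A1 and COL1A2).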

How the data were processed

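Poly(A) RNA from 1 library per group was sequenced as 2 × 150-base paired ends, per the labels. The submitters' processing notes name cutadapt 1.9.1, HISAT2 2.2.1, HTSeq 0.6.1, DESeq2 and hg38, without their settings. The authors deposited 1 table with whole-number counts per gene, not normalized, and FPKM, which are those counts divided by exonic length and library total (recomputed here to within 0.005 FPKM). Columns whose name ends in T were taken for the melatonin libraries. Annotation columns of the same table gave symbols and positions.

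A gene was tested where either library of a comparison reached 1 FPKM, with a pseudocount of 1 FPKM and a threshold of 0.58 on the log2 scale. This pseudocount understates the change of low genes. Ratios of CPM carry exact (Clopper-Pearson) 95% intervals, with a floor of 3 counts. The intervals hold for counting error alone. They may be too narrow even for that, because PCR copies of a molecule may be counted as separate reads. With 1 library per group a comparison within a line or between untreated lines leaves no residual degrees of freedom. A count model over both lines with line and treatment as terms would leave 1 degree of freedom, but would test an effect shared by both lines on the JJ012 libraries by which the genes were chosen. Neither edgeR's quasi-likelihood test nor DESeq2 was run here. Gene types and transcripts came from GENCODE 29. The members, the 4 gene lists, the 5 marker lists and the rules were chosen with earlier results of these data known. Named genes were all 8 members, up to 4 genes per list and comparison past the threshold, neighbors within 100 kb past the threshold, the 5 nearest to TNNT3, and the genes ranked beside it. PHLDA3, CSRP1, PRR33, LINC01150, MRPL23-AS1, LINC01219, CDKN1C, TOLLIP-DT and MYL3 were named after their values were seen, as were all marker genes.

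The calculations were tested on simulated counts. As alternatives, the filter was left out or raised to 5 FPKM, the pseudocount lowered to 0.1 FPKM, and the threshold raised to 1. Values were also centred on the median gene or taken as TPM or CPM, neighbors within 250 kb were counted, and likeness was measured by Pearson correlation. Protein-coding genes alone and the principal transcript length were added after the data were seen. Scripts ran in Python 3.11.15 with pandas 2.3.3, numpy 2.4.6, matplotlib 3.10.9 and scipy 1.17.1.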

Additional observations from a re-analysis of the deposited data

How the results depend on the processing

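The labels carry no replicate numbers, and with 1 library per group none could be left out. A fit with the cell line as a block was not run. The number of troponin genes past the threshold was 4 in JJ012, 0 in 143B and 4 between the untreated lines. A filter of 5 FPKM, which leaves fewer genes, gave 2 in JJ012 and 2 between the lines, TNNT1 and TNNT3. TPM gave 2 in 143B, TNNI3 (-0.76) and TNNC1 (0.90), both with 20 counts or fewer per library. It also gave 5 in JJ012 and 5 between the untreated lines, adding TNNC1 (-1.01 and 1.21). TNNC1 had at most 12 counts in any library, and under TPM it passed in opposite directions in JJ012 and 143B. TNNT1, TNNT3, TNNI1 and TNNI2 were lower in JJ012 after melatonin under each alternative that kept them. TNNT3 was at -4.04 as reported, -5.81 with a pseudocount of 0.1 FPKM, -5.09 with TPM and -5.01 with CPM, TNNI1 was at -3.50, -2.65 and -3.35 in those settings, TNNI2 was at -1.40 as reported and -4.11, -2.77 and -1.47 in them, and TNNT1 was at -0.86 with TPM. TPM moved the median gene tested in JJ012 from 0.01 to 0.21 and the share of higher genes among those past the threshold from 51.4% to 62.4%. Centring on the median gene moved that share between the untreated lines from 60.1% to 48.6%.

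Of all genes, 6036 passed in JJ012 and 1801 in 143B, against 12226 and 6039 with TPM, 3352 and 547 with a filter of 5 FPKM, 2327 and 629 with a threshold of 1, and 3907 and 662 with protein-coding genes alone. A pseudocount of 0.1 FPKM gave 2948 in 143B. Between the untreated lines, 11626 passed, against 18419 with TPM and 6152 with a filter of 5 FPKM.

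For the lists in JJ012, thin filament genes past the threshold numbered 5 as reported, 10 with a pseudocount of 0.1 FPKM, 10 with TPM and 2 with a threshold of 1. Thick filament and Z-disc genes numbered 7, and 3 with a threshold of 1. Muscle transcription factors numbered 1, 5 with the smaller pseudocount, 8 with TPM and 0 with a threshold of 1, and calcium genes 3, 5 with TPM and 1 with a threshold of 1. In 143B, 1 thin filament gene passed with the smaller pseudocount and 1 muscle transcription factor with TPM, against 0. Between the untreated lines, thin filament genes numbered 10, and 6 with a threshold of 1, thick filament and Z-disc genes 7, and 12 with TPM, transcription factors 9, and 14 with TPM, and calcium genes 6, and 3 with a threshold of 1. In a window of 250 kb, the share of lower neighbors in 143B was 9.38% for all loci (3.03% in 100 kb) and 16.7% around TNNI2 and TNNT3 (0%), and between the untreated lines 35.1% (20% in 100 kb) and 25.0% (0%). Around TNNI2 and TNNT3 in JJ012 the wider window added no tested gene. Pearson correlation kept 2 of the 5 genes most like TNNT3. The causes were not tested. TNNC1, TNNC2 and TNNT2 had at most 12 counts in any library, so their intervals are wide, and those of TNNC1 and TNNT2 lay to one side of 1 in some comparisons.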
